A study of Homo sapiens with 6 samples.

Results

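Protein prenylation is read here in T24 cells through 10 genes, GGPS1, FNTA, FNTB, PGGT1B, RABGGTA, RABGGTB, ICMT, RCE1, ZMPSTE24 and DHDDS. They are the genes of these symbols among the 78932 genes of the count table, each symbol has 1 row, and all 10 pass the filter on low counts. T24 is a line from a human bladder carcinoma. RNA with poly(A) tails is sequenced from 3 samples given a non-targeting siRNA (siNC) and from 3 samples given siRNA against TRIM28 (siTRIM28), all labelled as biological replicates of 1 batch, with no other treatment in the labels. The labels do not say which of the study's 2 siRNAs against TRIM28 these samples received, nor for how long.

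Prenylation attaches an isoprenoid lipid to a cysteine near the end of a protein, which lets the protein sit in a membrane. The lipids come from the mevalonate pathway, the route that also leads to cholesterol. Farnesyl diphosphate is its branch point, and it is used for squalene and cholesterol, for farnesylation, for geranylgeranyl diphosphate and for dolichol. Many small GTPases, the RAB proteins among them, and nuclear lamins carry such lipids, and T24 cells are known for an activating mutation of HRAS, a farnesylated protein.

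The target is lowered in all treated libraries. Levels are given as CPM, the count of a gene relative to its library's total, scaled by TMM to correct for composition. TRIM28 goes from 103 ± 4.08 to 8.84 ± 0.656 CPM (mean ± SD over 3 libraries). Libraries hold 11712623 to 14018052 counts. siNC replicate 3 and siTRIM28 replicate 1 stand apart from the other two of their group, with a chi-square over its degrees of freedom of 4.17 to 6.25 for the pairs they enter. The remaining pairs give 1.08 (siNC) and 1.22 (siTRIM28), close to but above counting noise. The 6 libraries are counted as separate replicates because the labels name them so, and whether these close pairs share an RNA source was not tested. With each close pair summed to 1 sample 7 of the 10 genes are called, beside 5879 of the 18867 genes tested in that setting. Of 12 epithelial and urothelial markers 4 pass the filter. KRT8 and KRT18 have 1070 counts or more in every library, whereas EPCAM has at most 6, CDH1 at most 2 and UPK1B none. Counts of 7 immune, endothelial and fibroblast markers sum to 22 to 35 in siNC and 50 to 62 in siTRIM28. Among them COL1A1 reaches 45 counts, CD3E is at 0 in all libraries, and the part of these genes in the results below was not tested.

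After TRIM28 knockdown 7 of the 10 genes change, 2 of them upward and 5 downward. RCE1, which cuts the last residues off prenylated proteins, rises 1.77-fold, and PGGT1B, the beta subunit of type I geranylgeranyl transferase, rises 1.57-fold. FNTB, the beta subunit of farnesyltransferase, falls by 37.2%. ICMT, DHDDS, RABGGTB and ZMPSTE24 fall less far, to 0.75, 0.804, 0.812 and 0.832 of their control levels. FNTA, GGPS1 and RABGGTA do not pass the threshold. A gene is called changed where its p-value from the edgeR quasi-likelihood fit, adjusted by Benjamini-Hochberg over all 18474 genes tested, is under 0.05. By this rule 41.8% of all genes tested are called, 21.3% higher and 20.5% lower. Groups of CPM do not overlap in 7 of the 10 genes and in 52.0% of all genes tested. The median log2 fold change (log2FC, siTRIM28 minus siNC) of the 10 is −0.28, against 0.02 over all genes tested. As bulk RNA is measured, fewer transcripts per cell and fewer cells with the transcript cannot be told apart.

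**Figure D1:**
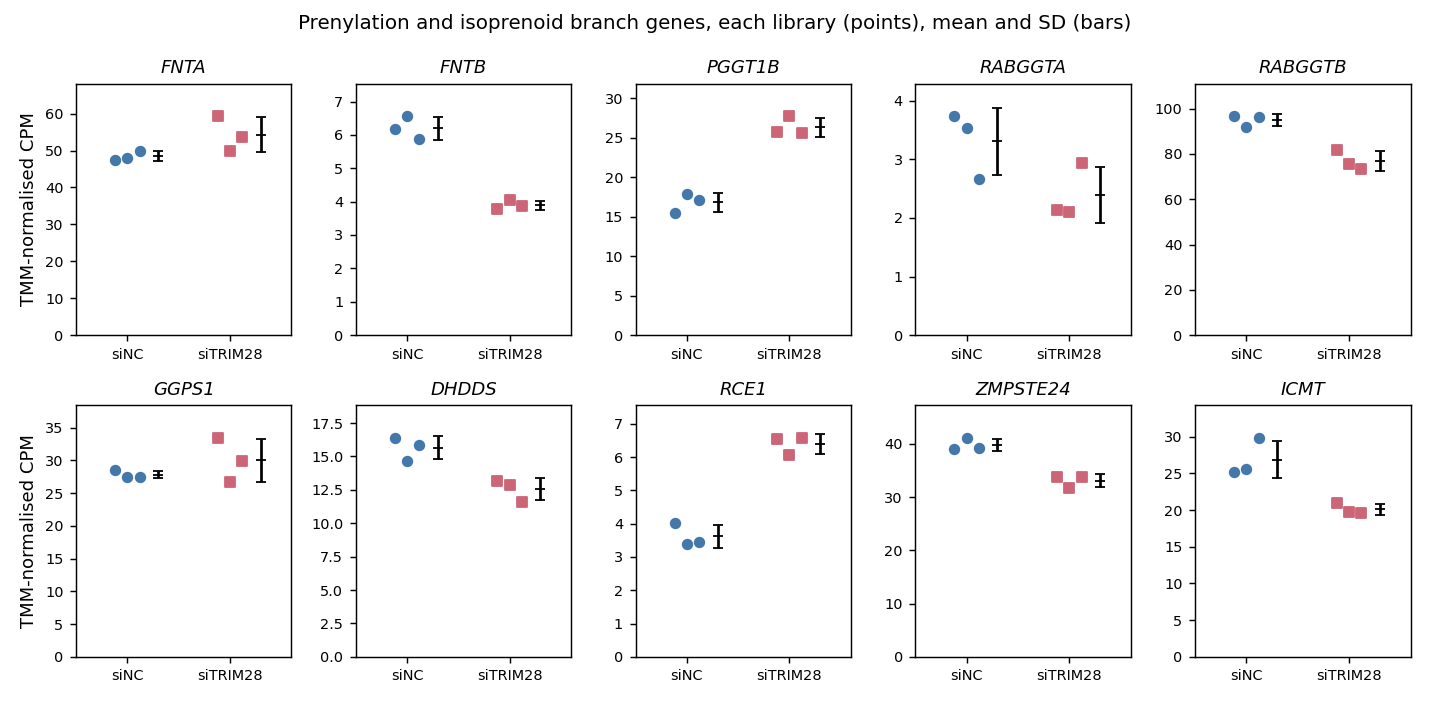
TMM-normalised CPM of the 10 genes (vertical axis of each panel, from 0) in 3 siNC and 3 siTRIM28 libraries (points), with the mean and SD beside each group (bars). RCE1 and PGGT1B are higher in all siTRIM28 libraries than in any siNC library, FNTB, RABGGTB, DHDDS, ZMPSTE24 and ICMT are lower in all of them, and the groups overlap in FNTA, RABGGTA and GGPS1.

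Promoter windows of the 2 highest rises and the 2 largest falls among the called genes are shown, so that the sequence around an annotated start of genes that move in opposite directions can be read side by side. RefSeq holds such windows for 9 of the 10 genes, 12 windows in all, each from 250 bases before to 50 after an annotated start on GRCh38.p14. RCE1 (chr11:66843191-66843490, plus strand), PGGT1B (chr5:115262828-115263127, minus strand), FNTB (chr14:64986645-64986944, plus strand) and ICMT (chr1:6235915-6236214, minus strand) have 1 window each, printed 5′ to 3′ on the strand of the gene. The RCE1 window lies wholly inside the counted gene model, which starts at 66842835, so it is not upstream of that model. Capitals mark letters that match a searched motif on either strand, and adjoining or overlapping matches run together.
RCE1: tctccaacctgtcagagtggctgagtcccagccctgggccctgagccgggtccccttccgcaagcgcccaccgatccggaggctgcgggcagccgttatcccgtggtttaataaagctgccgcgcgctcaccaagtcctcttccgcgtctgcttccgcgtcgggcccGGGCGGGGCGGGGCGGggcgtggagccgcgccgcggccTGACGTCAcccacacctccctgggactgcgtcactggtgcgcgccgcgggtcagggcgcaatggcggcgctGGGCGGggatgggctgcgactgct
PGGT1B: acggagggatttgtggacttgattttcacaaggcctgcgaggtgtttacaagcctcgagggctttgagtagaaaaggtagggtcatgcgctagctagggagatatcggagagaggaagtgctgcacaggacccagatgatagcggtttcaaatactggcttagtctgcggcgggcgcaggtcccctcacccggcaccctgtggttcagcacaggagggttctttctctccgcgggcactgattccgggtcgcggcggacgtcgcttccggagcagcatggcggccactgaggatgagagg
FNTB: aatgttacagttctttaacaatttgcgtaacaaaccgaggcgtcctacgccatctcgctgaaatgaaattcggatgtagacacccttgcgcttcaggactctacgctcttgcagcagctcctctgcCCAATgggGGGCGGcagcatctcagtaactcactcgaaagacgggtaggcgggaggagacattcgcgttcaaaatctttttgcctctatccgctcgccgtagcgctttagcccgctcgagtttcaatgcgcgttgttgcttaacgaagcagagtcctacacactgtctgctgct
ICMT: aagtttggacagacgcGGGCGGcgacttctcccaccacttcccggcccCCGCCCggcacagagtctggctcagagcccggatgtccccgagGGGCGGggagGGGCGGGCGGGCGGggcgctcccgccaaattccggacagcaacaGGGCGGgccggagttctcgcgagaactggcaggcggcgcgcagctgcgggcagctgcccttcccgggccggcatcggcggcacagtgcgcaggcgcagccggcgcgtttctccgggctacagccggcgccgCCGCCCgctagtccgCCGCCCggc

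The motifs searched are the GC box GGGCGG, the CCAAT box CCAAT, an ETS motif CCGGAAGT, the cAMP response element TGACGTCA and CACCCCAC, the core of the sterol regulatory element. RCE1 holds 4 GC boxes and 1 cAMP response element. ICMT holds 9 GC boxes, some of which overlap each other, while FNTB holds 1 GC box and 1 CCAAT box. PGGT1B holds none of these motifs in this window. Of 35116 RefSeq windows of the same length, 45.0% hold a GC box, 34.6% a CCAAT box, 4.14% the ETS motif, 1.85% the cAMP response element and 2.79% the sterol core. The sterol core is in none of the 12 windows, and the ETS motif is in 1, that of ZMPSTE24. These matches are letters only, and binding is not measured here.

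Farnesyltransferase and type I geranylgeranyl transferase share the alpha subunit FNTA and differ in the beta subunit, which binds the protein to be modified. FNTA (ENSG00000168522, chromosome 8 of GRCh38, 43034194 to 43085780) has 47.4, 48.0 and 49.9 CPM in siNC replicates 1, 2 and 3, and 59.2, 49.9 and 53.7 CPM in siTRIM28 replicates 1, 2 and 3. The highest siNC value and the lowest siTRIM28 value meet, and siTRIM28 replicate 1 is the highest library. The log2FC is 0.17 (standard error, SE, 0.0692, adjusted p = 0.0744). It is 0.10 without siTRIM28 replicate 1 (adjusted p = 0.211). With upper-quartile scaling it is 0.20 and passes the threshold (adjusted p = 0.0335), as it does with total counts and without siTRIM28 replicate 2.

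FNTB (ENSG00000257365, chromosome 14, 64986895 to 65062650) directs the enzyme to farnesylation. Its level is 6.17, 6.55 and 5.86 CPM in siNC and 3.77, 4.04 and 3.87 CPM in siTRIM28. All siTRIM28 libraries lie below all siNC libraries, with a log2FC of −0.67 (SE 0.138, adjusted p = 0.00212). The counts behind it are 46 to 91 per library. In GENCODE v29, 42.1% of the exon bases of FNTB are also exons of CHURC1-FNTB, a gene model on the same strand that joins FNTB to an upstream gene. CHURC1-FNTB has 77.5 ± 3.91 CPM in siNC and 89.7 ± 22.7 in siTRIM28 (log2FC 0.21, adjusted p = 0.218), and how reads in shared exons were assigned is not given in the sources used here. The change of FNTB is therefore that of the reads assigned to this model, and total farnesyltransferase beta transcript is uncertain.

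PGGT1B (ENSG00000164219, chromosome 5, 115204012 to 115262865) directs the enzyme to geranylgeranylation of CaaX proteins such as RAC1. It has 15.4, 17.9 and 17.1 CPM in siNC and 25.7, 27.7 and 25.6 CPM in siTRIM28. The groups are far apart relative to their spread, and PGGT1B has the lowest adjusted p of the 10 genes (log2FC 0.65, SE 0.0746, adjusted p = 3.26e-05). Of its exon bases 98.4% are shared with no other gene in GENCODE v29. The release used for counting is not given in the sources used here. The file's gene length is 10069 bases, against 10064 exon bases in GENCODE v29, so overlaps in the counted annotation may differ.

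RABGGTA and RABGGTB form the enzyme that geranylgeranylates RAB proteins, which steer vesicle traffic. RABGGTB (ENSG00000137955, chromosome 1, 75786197 to 75794803), the beta subunit, has 96.6, 91.9 and 96.2 CPM in siNC and 81.9, 75.8 and 73.4 CPM in siTRIM28. It is the most abundant of the 10 and lower in every siTRIM28 library, with a log2FC of −0.30 (SE 0.0543, adjusted p = 0.000914). RABGGTA (ENSG00000100949, chromosome 14, 24265538 to 24271549), the alpha subunit, has 3.73, 3.53 and 2.66 CPM in siNC and 2.14, 2.10 and 2.95 CPM in siTRIM28. With 25 to 52 counts per library the groups overlap, since siNC replicate 3 lies below siTRIM28 replicate 3. Its log2FC of −0.48 (SE 0.209, adjusted p = 0.0886) is larger in size than that of RABGGTB but does not pass the threshold. Without siNC replicate 3 it is −0.61 (adjusted p = 0.0477) and without siTRIM28 replicate 3 it is −0.65 (adjusted p = 0.048).

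Once a CaaX protein, one that ends in a cysteine and 3 further residues, carries its lipid, RCE1 or ZMPSTE24 removes the last residues and ICMT methylates the exposed cysteine. RCE1 (ENSG00000173653, chromosome 11, 66842835 to 66846552) has 4.02, 3.38 and 3.44 CPM in siNC and 6.55, 6.06 and 6.57 CPM in siTRIM28. The siTRIM28 libraries are all higher, and the log2FC of 0.82 (SE 0.143, adjusted p = 0.000712) is the highest of the 10, at 44 to 92 counts per library. Of its exon bases 12.7% are also exons of C11orf80 on the same strand in GENCODE v29. The part of reads from C11orf80 in the change of RCE1 was not tested. ZMPSTE24 (ENSG00000084073, chromosome 1, 40258041 to 40294180), the protease that also matures prelamin A, has 39.1, 41.0 and 39.2 CPM in siNC and 33.7, 31.7 and 33.8 CPM in siTRIM28. It is lower in every siTRIM28 library, by a small amount relative to other members (log2FC −0.27, SE 0.0605, adjusted p = 0.00412). ICMT (ENSG00000116237, chromosome 1, 6221193 to 6235972) has 25.2, 25.6 and 29.8 CPM in siNC and 21.0, 19.7 and 19.6 CPM in siTRIM28. The siNC libraries are higher, replicate 3 most of all (log2FC −0.41, SE 0.0792, adjusted p = 0.00132), and without that library the log2FC is −0.34 (adjusted p = 0.00729). The proteases of this step thus change in opposite directions.

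GGPS1 makes geranylgeranyl diphosphate from farnesyl diphosphate. GGPS1 (ENSG00000152904, chromosome 1, 235327350 to 235343138) has 28.5, 27.5 and 27.5 CPM in siNC and 33.4, 26.7 and 29.9 CPM in siTRIM28. The siTRIM28 libraries lie on both sides of siNC, and the log2FC of 0.11 (SE 0.081, adjusted p = 0.306) becomes 0.02 without siTRIM28 replicate 1 (adjusted p = 0.81). In GENCODE v29, 37.3% of its exon bases are also exons of a gene on the same strand, where the file has the overlapping model ENSG00000285053 at 78.4 ± 2.12 CPM in siNC and 74.5 ± 6.94 in siTRIM28 (adjusted p = 0.415). DHDDS is a subunit of the cis-prenyltransferase that lengthens farnesyl diphosphate towards dolichol, the carrier of sugars for protein N-glycosylation. DHDDS (ENSG00000117682, chromosome 1, 26432282 to 26470310) has 16.4, 14.7 and 15.9 CPM in siNC and 13.2, 12.9 and 11.6 CPM in siTRIM28. The groups do not overlap (log2FC −0.31, SE 0.0817, adjusted p = 0.00897), while DESeq2 gives −0.32 with an adjusted p of 0.0616. On the opposite strand the file has DHDDS-AS1, which falls from 82.0 ± 2.76 to 55.5 ± 12.9 CPM (log2FC −0.56, adjusted p = 0.00299), and as the strand setting is not given in the sources used here, reads of these genes may not be separable.

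**Figure D2:**
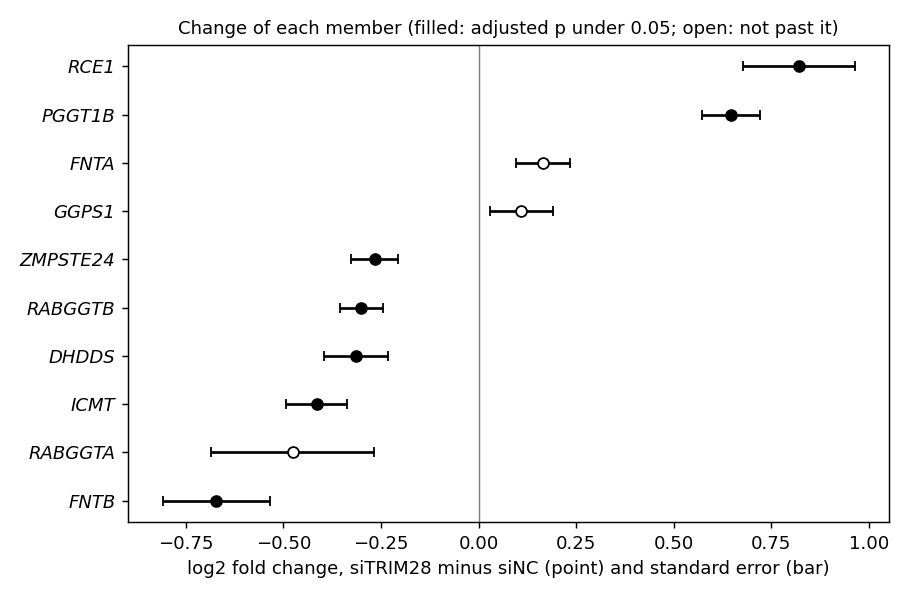
The log2FC of each of the 10 genes (horizontal axis, siTRIM28 minus siNC), with its standard error (bars), ordered by value. Filled points have an adjusted p under 0.05, from FNTB at −0.67 to RCE1 at 0.82, and the open points are RABGGTA, GGPS1 and FNTA.

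Per kilobase of gene length the 10 genes span over a decade in control cells. RABGGTB is highest with 16.0 ± 0.441 RPKM in siNC (CPM per kilobase of gene length, mean ± SD, n = 3), followed by ZMPSTE24 with 9.89 ± 0.273 and GGPS1 with 7.31 ± 0.150. ICMT with 5.47 ± 0.515 and FNTA with 5.15 ± 0.143 overlap in their siNC values, and so do PGGT1B with 1.67 ± 0.123 and FNTB with 1.64 ± 0.0916. DHDDS lies between these pairs with 2.19 ± 0.120, RCE1 has 1.20 ± 0.117 and RABGGTA 0.968 ± 0.167, and no other neighbours in this order overlap. In siTRIM28 PGGT1B has 2.62 ± 0.118 RPKM and FNTB 1.03 ± 0.0359, so these levels, which overlap in siNC, are apart in siTRIM28. That of FNTB covers only the reads assigned to its own model, apart from CHURC1-FNTB. These levels use the whole gene length as the file gives it, shared exons included.

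To ask whether partners in an enzyme move together, the log2 ratio of 6 pairs is taken within each library. FNTB in these ratios covers only the reads assigned to its own model, without CHURC1-FNTB. The ratio of FNTB to PGGT1B is −1.30, −1.43 and −1.52 in siNC and −2.72, −2.73 and −2.68 in siTRIM28, a difference of −1.29, or 0.408 of the control ratio. The groups do not overlap in this balance between the beta subunits that share FNTA (exact permutation test, two-sided, p = 0.1, adjusted over the 6 pairs p = 0.15). This separation follows from the changes of the genes themselves, as FNTB is lower and PGGT1B higher in every siTRIM28 library. With 3 libraries against 3, 0.1 is the smallest p possible. FNTA to FNTB goes from 2.94 ± 0.110 to 3.75 ± 0.171 and FNTA to PGGT1B from 1.52 ± 0.0965 to 1.04 ± 0.178 (mean ± SD, n = 3), also without overlap (exact permutation test, p = 0.1 and adjusted p = 0.15 for each). GGPS1 to FDPS, the synthase that makes its substrate, goes from −1.83 ± 0.0179 to −1.09 ± 0.158 (n = 3, exact permutation test, p = 0.1). FDPS itself falls from 99.7 ± 1.43 to 63.6 ± 0.956 CPM. In contrast, DHDDS and NUS1, the subunits of cis-prenyltransferase, keep a ratio of −1.39 ± 0.0374 in siNC and −1.39 ± 0.120 in siTRIM28 (n = 3, exact permutation test, p = 1), and both fall, NUS1 with a log2FC of −0.31 (adjusted p = 0.00124). RABGGTA to RABGGTB is −4.79 ± 0.265 and −4.93 ± 0.320 (n = 3, exact permutation test, p = 0.9), so no difference is detectable at the counts of RABGGTA.

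**Figure D3:**
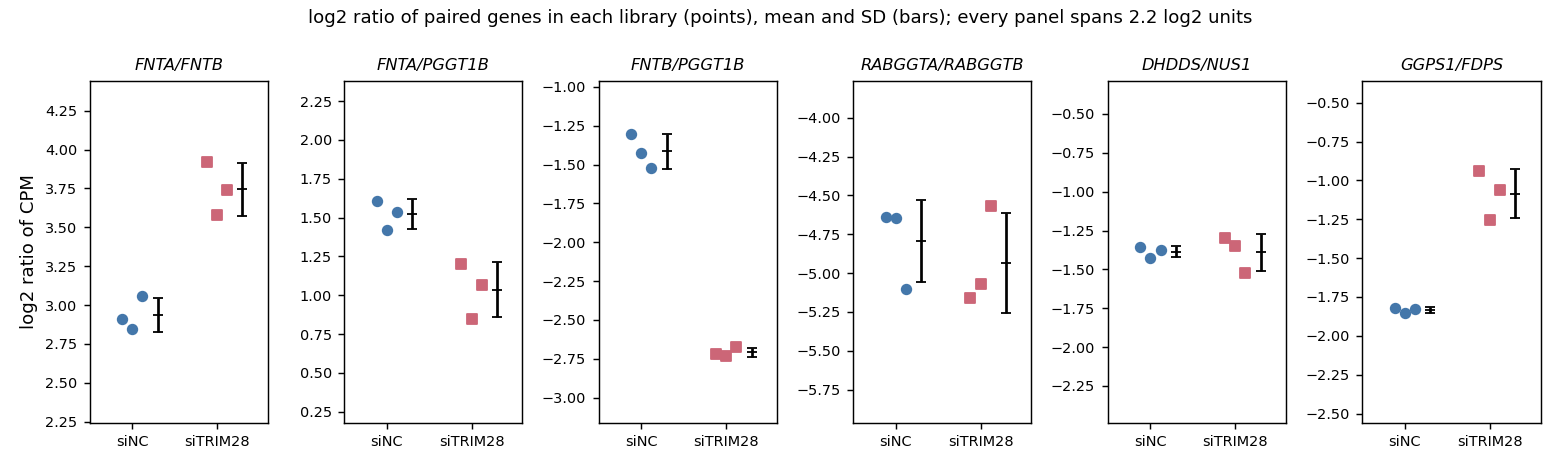
The log2 ratio of CPM of paired genes (vertical axis, the same span in every panel) in each siNC and siTRIM28 library (points), with the mean and SD (bars). Groups are apart in the 3 pairs among FNTA, FNTB and PGGT1B and in GGPS1/FDPS, and overlap in RABGGTA/RABGGTB and DHDDS/NUS1. FNTB stands for the reads assigned to its own model, without CHURC1-FNTB.

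Upstream of these genes, 8 enzymes of isoprenoid supply run from HMG-CoA synthase to farnesyl diphosphate. Of them 1 rises and 3 fall, so 4 of 8 are called beside 41.8% of all genes tested, with a median log2FC of −0.12. FDPS falls (log2FC −0.65, adjusted p = 8.09e-07). MVD, which makes isopentenyl diphosphate, has a log2FC of −0.32 (adjusted p = 0.0327) and PMVK, a kinase of the pathway, −0.20 (adjusted p = 0.043). The call of MVD is lost under 6 of 15 other settings, among them DESeq2 and leaving out any siNC library or siTRIM28 replicate 2 (adjusted p up to 0.131). That of PMVK is lost under 10 of 15, also without any siNC library, and without siTRIM28 replicate 1 its log2FC is −0.13 (adjusted p = 0.171).

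Among 13 other enzymes that use or recycle isoprenoids, 8 fall and none rises, and 12 have a negative log2FC with a median of −0.48. Over all genes tested 20.5% are called lower, and 8956 of 18474 have a negative log2FC. PDSS2, a subunit of the synthase for the ubiquinone side chain, falls from 13.6 ± 0.372 to 7.14 ± 0.445 CPM (log2FC −0.92, adjusted p = 1.11e-05). PCYOX1L, related to the prenylcysteine oxidase PCYOX1, is the lowest of the list, with a log2FC of −0.96 (adjusted p = 7.77e-05). FDFT1, which commits farnesyl diphosphate to squalene, falls by 0.51 on the log2 scale (adjusted p = 3.31e-06).

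Helper proteins escort prenyltransferases or shield the lipid of prenylated proteins. Of 13, 4 rise and 3 fall, beside 21.3% called higher and 20.5% lower over all genes tested. PTAR1, an alpha subunit that pairs with RABGGTB in a further geranylgeranyl transferase, rises from 13.2 ± 0.912 to 18.0 ± 0.576 CPM (log2FC 0.46, adjusted p = 0.000531). CHML, a RAB escort protein, rises by 0.26 on the log2 scale. ARHGDIA, which shields the lipid of RAC1 and related GTPases, falls from 177 ± 9.02 to 124 ± 23.3 CPM (log2FC −0.51, adjusted p = 0.00167). RABAC1, a RAB acceptor, has a log2FC of −0.47 (adjusted p = 0.00024).

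Transcripts of the proteins that receive the lipids move in both directions. Of 28 farnesylated proteins 26 are tested, and 11 rise and 6 fall, with a median log2FC of 0.10. Over all genes tested 21.3% are called higher and 20.5% lower. HRAS rises from 41.9 ± 2.15 to 51.0 ± 2.41 CPM (log2FC 0.28, adjusted p = 0.00405), although with the closest replicate pairs summed its adjusted p is 0.0668. LMNA, whose precursor ZMPSTE24 matures, rises from 310 ± 10.1 to 400 ± 14.5 CPM (log2FC 0.37, adjusted p = 3.39e-05), and LMNB2 falls from 285 ± 6.24 to 160 ± 2.99 CPM (log2FC −0.83, adjusted p = 3.9e-08). SPDL1 and CENPF, which act at the kinetochore, rise by 0.63 and 0.60 on the log2 scale, and so does INPP5E, a ciliary phosphatase, by 0.62. YKT6, a vesicle fusion protein, and PRICKLE1, of planar cell polarity, have log2FCs of −0.67 and −0.63.

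For geranylgeranylated proteins outside the RAB family, 22 of 26 are tested, 5 rise and 8 fall, and the median log2FC is −0.09. The shares over all genes tested are 21.3% higher and 20.5% lower. RAC1, a driver of membrane ruffling, falls from 142 ± 3.51 to 49.3 ± 3.05 CPM (log2FC −1.53, SE 0.0552, adjusted p = 5.86e-09), the largest change of this list. RHOA has 255 ± 2.04 and 255 ± 2.75 CPM (adjusted p = 0.987). CDC42 has a log2FC of 0.13 (adjusted p = 0.0438), a call that is lost under 10 of 15 other settings, among them leaving out any siNC library or siTRIM28 replicate 2 or 3. GNG12, a G protein gamma subunit, and MIEN1 fall by 0.70 and 0.71 on the log2 scale. RHOB rises by 0.82 on the log2 scale, FBXL2, an F-box protein, by 0.68 and GNG5 by 0.33 (adjusted p = 0.000654, 0.000472 and 0.0134). GNG5 is highest in siTRIM28 replicate 1, without which its log2FC is 0.22 (adjusted p = 0.0411), and its call is lost without siNC replicate 3 (adjusted p = 0.0673).

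Of 63 genes named RAB with a number and at most 1 letter (RAB28 is among the farnesylated proteins), 48 are tested. Of these 9 rise and 16 fall, beside 21.3% higher and 20.5% lower over all genes tested, with a median log2FC of −0.05. RAB8B falls from 44.2 ± 1.12 to 16.0 ± 0.362 CPM (log2FC −1.47, adjusted p = 1.72e-08), RAB10 from 164 ± 2.98 to 92.0 ± 1.63 and RAB35 from 24.1 ± 1.74 to 14.0 ± 0.733. All 3 act in traffic to the cell surface or its recycling, but whether RAB genes of this role fall as a set was not tested. RAB8A, the paralog of RAB8B, rises (log2FC 0.19, adjusted p = 0.00597). RAB15 rises from 11.9 ± 0.635 to 27.6 ± 1.52 CPM (log2FC 1.22, adjusted p = 2.12e-07), RAB3B by 0.55 and RAB5A, of early endosomes, by 0.38 on the log2 scale. RAB15 lies within the span of CHURC1-FNTB, on the opposite strand. As the strand setting is not given, the part of CHURC1-FNTB reads in the rise of RAB15 was not tested. The share called is 52.1% for RAB genes, 59.1% for the other geranylgeranylated and 65.4% for the farnesylated proteins, 53.8% for helpers and 61.5% for other isoprenoid users, beside 41.8% of all genes tested. Without regard to sign, the median log2FC is 0.20 for RAB genes, 0.22 for the other geranylgeranylated and 0.27 for the farnesylated proteins. It is 0.26 for helpers and 0.48 for other isoprenoid users, beside 0.27 over all genes tested. Among these lists of prenylated proteins, helpers and other isoprenoid users, a higher share called thus goes with larger changes only for other isoprenoid users. Outside these lists, the 10 genes (7 of 10 called) have a median without regard to sign of 0.36, also above that of all genes tested. The 8 supply enzymes (4 of 8 called) have 0.28, slightly above it. No list was tested as a set.

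**Figure D4:**
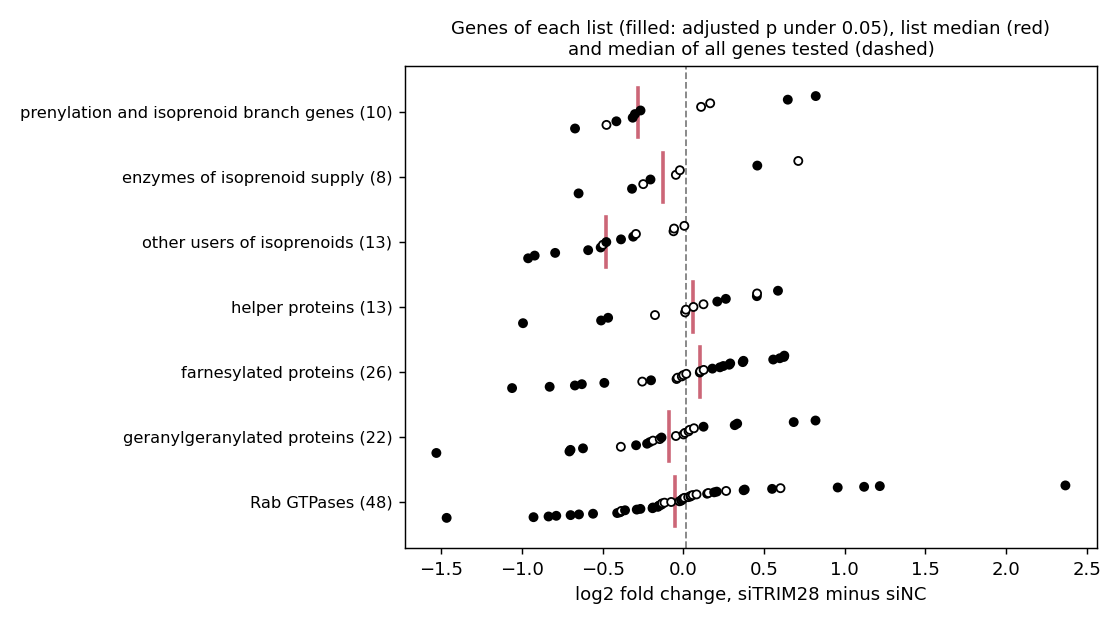
The log2FC of every tested gene (points, horizontal axis, siTRIM28 minus siNC) of 7 gene lists, with the number tested in brackets, the median of each list (red line) and of all genes tested (dashed line). Filled points have an adjusted p under 0.05, and the lowest list median is that of the other users of isoprenoids, −0.48.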

How the data were processed

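The deposited table holds raw read counts for each Ensembl gene on GRCh38, made by the authors. The submitters' processing notes name fastp 0.23.1, STAR 2.7.6a and featureCounts. The annotation release, strand setting and treatment of duplicate reads are not given in the sources used here. A second deposited table holds the authors' normalised values of their differentially expressed genes and is not used.

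Counts were tested with edgeR 4.0.16 in R 4.3.3 (TMM, glmQLFit, glmQLFTest, condition as the only term) over the 18474 genes that reach 10 counts in 3 or more libraries, and p-values were adjusted by Benjamini-Hochberg with a threshold of 0.05. Standard errors were derived from each fold change and its F statistic. CPM and RPKM use TMM-scaled totals and the deposited gene length. Ratios of genes use log2 CPM with a prior count of 2 and exact permutation tests over libraries, which cannot give p under 0.1. The 3 siNC and 3 siTRIM28 libraries come from the labels, and depth of 11712623 to 14018052 counts leaves genes under 50 counts imprecise. Tests were run on simulated data first.

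Genes and lists were chosen with earlier results of these data known. Besides all members, the text names TRIM28, both genes of each ratio, HRAS, LMNA, RHOA, RAC1 and CDC42, and per list up to 3 called genes in each direction with the largest changes and a mean of at least 50 counts. Some genes this rule takes are not reported here. Marker genes and overlapping gene models were named after their values were seen. Alternatives are DESeq2 1.42.0, limma-voom (limma 3.58.1), scaling by RLE, upper quartile or total count, other filters, a replicate block, each library left out, and the closest pairs summed. Figures use matplotlib 3.10.9.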

Additional observations from a re-analysis of the deposited data

How the results depend on the processing

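The log2 fold changes of all 10 genes kept their direction under all 15 alternatives, and those of FNTB, PGGT1B, RABGGTB, ICMT, RCE1, ZMPSTE24 and GGPS1 also their side of the threshold, GGPS1 never passing it. PGGT1B lay between 0.59 and 0.69, RCE1 between 0.77 and 0.90, and FNTB between −0.71 and −0.63. From 6 (DESeq2) to 8 of the 10 genes were called, 7 to 8 with each library left out, and over all genes tested 5878 (DESeq2) to 8130, against 7721 with the main settings. Of the genes called, 56.6% were higher with upper-quartile scaling, against 51.0% with TMM. The count of changed supply enzymes moved from 4 to 2 with upper-quartile scaling or DESeq2, and lay between 2 and 4 with each library left out, 2 being without siNC replicate 2 or 3. For geranylgeranylated proteins outside the RAB family the count moved from 13 to 8 with DESeq2 or with the closest pairs summed, and lay between 8 and 14 with each library left out, 8 being without siNC replicate 1 or siTRIM28 replicates 2 or 3. The cause of these moves was not tested. The ratio of DHDDS to NUS1 differs by −0.005 between the groups and lay between −0.0513 and 0.063 with each library left out, changing sign without siNC replicate 1 (0.0109) or siTRIM28 replicate 3.

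The replicate numbers are shared by label only, since deviations of same-numbered libraries correlate at 0.0523, −0.0118 and 0.0374. With the replicate number as a block 7913 genes and 7 of the 10 members are called, and the exact sign-flip test of the pair ratios cannot go below p = 0.25. RHOA changes sign between settings around 0. RABGGTA, RCE1 and FNTB, at under 100 counts per library, are the members that depth limits most.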
